A study of Mus musculus with 4 samples.

Results

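The genes described here are 32 genes of sterol and fatty acid synthesis and of their control, measured by single-cell RNA sequencing of mouse marrow. They were taken by symbol, and all 32 were found among the 27998 features counted. They comprise 16 enzymes of cholesterol synthesis, 6 genes of control by sterol regulatory element-binding proteins (SREBPs) and of sterol transfer, 5 genes of the liver X receptors (LXRs) and their targets, and 5 enzymes of fatty acid synthesis. The Idh1-R132H group held 2 libraries from mice whose marrow carried a heterozygous Idh1-R132H allele, and the Idh1-WT group held 2 libraries from mice with wild-type Idh1. The enzyme Idh1 oxidises isocitrate in the cytosol and makes NADPH, and with the R132H change it makes 2-hydroxyglutarate instead. In both groups tamoxifen was given for 5 days to recombine an EYFP reporter, and in the mutants the Idh1 allele too. Sorted lineage-negative, EYFP-positive cells were transplanted 2 weeks later into irradiated mice, with no supporting marrow. At 16 weeks EYFP-positive marrow was taken, and 3 sorted populations were pooled in 1 tube at 4000 cells each. These were CD45.1-positive cells as a whole, the LSK gate (stem and early progenitor cells, negative for lineage markers and positive for Sca1 and cKit) and the LK gate (cKit-positive, lineage-negative progenitors). The proportions of cell types were therefore set by the sort. The Cre driver and the age of the animals are not given in the sources used here. Each library is from 1 recipient mouse, and a group holds 2 of them; how many donors gave the transplanted cells is not given in the sources used here. Cells with UMIs of Xist and none of 4 Y-linked genes made up 46.7% and 35.3% of the Idh1-R132H libraries and 61.9% and 45.1% of the Idh1-WT libraries. Cells with Y-linked UMIs and none of Xist made up 22.4% and 28.8% of the Idh1-R132H libraries and 4.84% and 16.4% of the Idh1-WT libraries, so each library held both kinds of cell.

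Cholesterol is built from acetyl-CoA through mevalonate. Acat2 and Hmgcs1 make the first intermediates, Mvk, Pmvk and Mvd phosphorylate and decarboxylate mevalonate, Idi1 and Fdps make farnesyl diphosphate, which also serves protein prenylation, and Fdft1, Sqle and Lss make squalene and close it into lanosterol, which Cyp51, Tm7sf2, Msmo1, Hsd17b7, Sc5d and Dhcr7 convert to cholesterol. When sterol is scarce, Scap escorts SREBP precursors (Srebf1, Srebf2) out of the endoplasmic reticulum and they switch on these enzymes, whereas Insig1 and Insig2 hold Scap back when sterol is plentiful. Oxysterols activate the LXRs (Nr1h2, Nr1h3), whose targets export cholesterol (Abca1, Abcg1) or remove the LDL receptor (Mylip). Acly, Acaca, Fasn, Elovl6 and Scd2 supply acetyl-CoA and make, lengthen and desaturate fatty acids, and both the reductive steps of these pathways and the wild-type reaction of Idh1 turn over NADPH and NADP.

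The 4 libraries held 47025425 and 53387528 UMIs (unique molecular identifiers, each 1 captured RNA molecule) in Idh1-R132H and 56353466 and 40364701 UMIs in Idh1-WT, and 16169 cells were analysed. Cells were clustered without the 32 genes and grouped into 16 classes from marker genes, each class with at least 33 cells in every library, and class names are written with the ending -like. A pair of clusters whose markers gave no clear class go by their leading genes. Marker scores of the monocyte-committed progenitor-like cluster were close, at 1.25 for that class and 1.14 for granulocyte-monocyte progenitors. It was named from the markers among its leading genes. When each cell was instead classed by its own markers, 40.3% of the stem and multipotent progenitor-like class and 39.4% of the megakaryocyte progenitor-like class stayed in place, and 65.6% to 98.0% of every other class. The unnamed cells were 2.74% and 2.16% of the Idh1-R132H libraries and 9.04% and 1.58% of the Idh1-WT libraries. Idh1-R132H 1 and Idh1-WT 1 shared the barcodes of 344 analysed cells, against 13 to 32 for the other pairs of libraries. These cells had a median of 26873 UMIs in Idh1-R132H 1 and 587 UMIs in Idh1-WT 1, where 300 of them were unnamed. The calls between genotypes and the counts of members called in or between classes were also computed with the shared barcodes left out. In Idh1-R132H 1 this kept 73.3% of granulocyte-monocyte progenitor-like and 66.4% of monocyte-committed progenitor-like cells. In the other libraries it kept 97.4% to 99.6% of these classes. Idh1 itself was present at 58.5 and 52.7 CPM in the Idh1-R132H libraries and 58.8 and 63.8 CPM in the Idh1-WT libraries over all cells, and 3′ counts do not tell mutant from wild-type transcripts. Levels are in CPM, the depth-scaled unit in which a gene's UMIs are divided by all UMIs of that library and class, and they are compared between samples and not between genes.

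Promoter sequences bear on these genes because SREBPs bind sterol regulatory elements beside CCAAT boxes that recruit the partner factor NF-Y. Of the 32 genes 26 had a promoter entry in RefSeq on GRCm38.p6, covering 250 bases before to 50 bases after the start of 35 transcripts. The 8-letter core TCACNCCA was searched on both strands and lay in 3 of the 35 windows (8.57%), those of Hmgcs1, Msmo1 and Srebf2, against 4.36% of all 32851 windows. CCAAT, searched likewise, lay in windows of 19 of the 26 genes and in 57.1% of the 35 windows, against 37.4% of all windows. These matches describe letters and not bound sites. The sequences below run 5′ to 3′ along the gene's strand, and capitals mark either motif (ATTGG is CCAAT on the other strand). Acat2, called with genotype in 1 class below, held neither. Fdps, the other gene called with genotype, was among the genes without a promoter entry and was not searched.
Hmgcs1 (chr13:119690101-119690400, plus strand): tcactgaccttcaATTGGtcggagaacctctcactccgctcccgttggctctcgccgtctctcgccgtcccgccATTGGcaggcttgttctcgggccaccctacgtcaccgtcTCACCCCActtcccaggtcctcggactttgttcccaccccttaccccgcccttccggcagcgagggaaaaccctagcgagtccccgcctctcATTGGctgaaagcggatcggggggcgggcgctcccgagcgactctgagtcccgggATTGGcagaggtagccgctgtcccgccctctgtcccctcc
Msmo1 (chr8:64733529-64733828, minus strand): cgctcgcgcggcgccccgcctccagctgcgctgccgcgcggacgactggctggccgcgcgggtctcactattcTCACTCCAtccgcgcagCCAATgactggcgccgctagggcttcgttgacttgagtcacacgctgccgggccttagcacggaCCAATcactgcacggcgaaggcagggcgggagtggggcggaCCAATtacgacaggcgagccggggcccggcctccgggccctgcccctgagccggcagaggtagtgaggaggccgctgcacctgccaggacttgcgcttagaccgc
Srebf2 (chr15:82147019-82147318, plus strand): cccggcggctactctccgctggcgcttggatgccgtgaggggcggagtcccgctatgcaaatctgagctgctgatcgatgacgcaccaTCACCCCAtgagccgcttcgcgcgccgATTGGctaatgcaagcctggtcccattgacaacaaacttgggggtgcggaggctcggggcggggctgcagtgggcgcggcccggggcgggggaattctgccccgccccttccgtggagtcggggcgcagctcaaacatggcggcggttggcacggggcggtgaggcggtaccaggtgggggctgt
Acat2 (chr17:12960676-12960975, minus strand): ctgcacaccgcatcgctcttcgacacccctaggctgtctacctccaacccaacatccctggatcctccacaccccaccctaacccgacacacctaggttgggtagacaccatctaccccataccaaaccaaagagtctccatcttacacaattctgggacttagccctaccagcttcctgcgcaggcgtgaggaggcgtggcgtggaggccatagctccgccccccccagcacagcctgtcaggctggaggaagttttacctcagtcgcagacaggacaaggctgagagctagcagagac

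Across the 16 classes the summed CPM of the cholesterol synthesis enzymes was highest in dendritic cell-like cells and lowest on average in neutrophil-like cells. The summed CPM of the fatty acid synthesis enzymes was low in both neutrophil classes. Each class was compared with the mean of the other 15 in 1 fit over all genes (edgeR's quasi-likelihood test with the library as a block, Benjamini-Hochberg adjusted over 10343 genes), and a member counted as called at an adjusted p under 0.05 and at least 2-fold. In that fit 29 members were tested, and Tm7sf2, Hsd17b7 and Nr1h3 did not pass the filter on low counts. Nr1h3, the LXR found chiefly in macrophages and liver, averaged at most 1.44 CPM in any class. Over all cells Tm7sf2, a sterol reductase, lay between 2.21 and 2.83 CPM and Hsd17b7, which reduces a sterol ketone, between 1.59 and 2.06 CPM. Of the members tested, Srebf1, Nr1h2, Acly and Acaca were called in no class, with log2 differences between -1.17 and 0.86. Since classes differ in RNA content, fold differences are given with 3 scalings (TMM, RLE and library totals) wherever these disagreed. Sums over a role group are in CPM only, which is scaled to library totals. TMM factors were 0.568 to 0.616 in neutrophil-like libraries, 0.526 to 0.548 in their precursors and 0.978 to 1.04 in T or NK-like libraries. The ranking of classes by summed CPM, with neutrophil-like cells lowest, therefore applies to CPM alone.

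**Figure D1:**
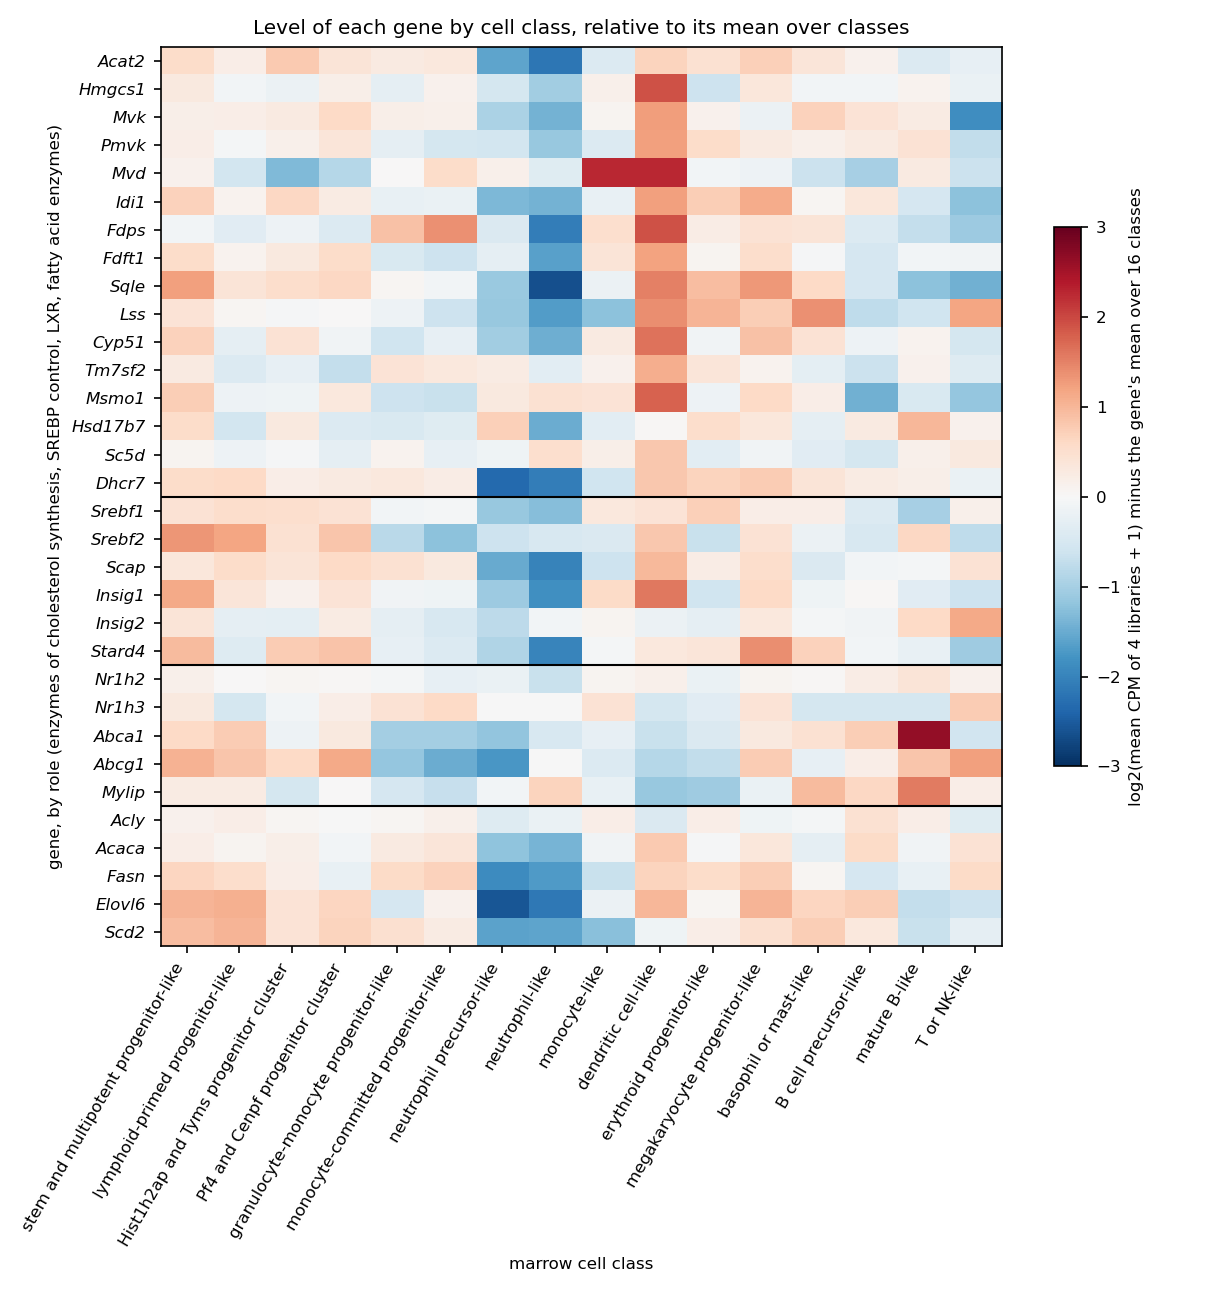
Each square gives the level of 1 gene (rows, by role) in 1 class (columns), as log2(mean CPM of the 4 libraries + 1) minus the gene's mean over the 16 classes; red is above and blue below that mean. Most cholesterol synthesis enzymes are red in the dendritic cell-like column and most genes are blue in the neutrophil columns.

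Dendritic cell-like cells, the antigen-presenting cells of the marrow, gave a larger share of their RNA to most enzymes of the mevalonate and sterol pathway than the other classes. Of 14 enzymes tested all had positive differences and 11 were called, with a median log2 difference of 1.50, against -0.01 over all genes. In all 13 members were called higher, where 9.68% of all genes were, and 1 was called lower (3.13% of all genes). Fdps, the enzyme that makes farnesyl diphosphate, stood at 184 and 246 CPM in Idh1-R132H and 221 and 428 CPM in Idh1-WT, against class means of 16.1 to 186 CPM elsewhere (log2 difference 1.93 ± 0.14 SE, adjusted p = 1.83e-19). Idh1-R132H 1 lay at the level of monocyte-committed progenitor-like cells, the next highest class, and Idh1-WT 2 lay far above the other 3 libraries. Hmgcs1, which makes HMG-CoA, had 61.4 and 33.0 CPM in Idh1-R132H and 27.1 and 84.1 CPM in Idh1-WT, against class means of 5.78 to 16.8 CPM (log2 difference 1.94 ± 0.26 SE, adjusted p = 4.33e-11). Mvd, which decarboxylates mevalonate diphosphate, had 13.2 and 24.0 CPM in Idh1-R132H and 38.7 and 54.8 CPM in Idh1-WT (log2 difference 2.55 ± 0.35 SE, adjusted p = 2.07e-10).

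Further along the pathway, Msmo1, a sterol C4-demethylase, had 92.1 and 41.9 CPM in Idh1-R132H and 58.1 and 109.7 CPM in Idh1-WT in dendritic cell-like cells (log2 difference 1.80 ± 0.22 SE, adjusted p = 3.53e-13). The other called enzymes were Lss with a log2 difference of 2.12, Cyp51 with 1.74, Sqle with 1.62, Mvk with 1.38, Pmvk with 1.25, Idi1 with 1.25 and Fdft1 with 1.22. Acat2, Sc5d and Dhcr7 had values of 0.57, 0.78 and 0.78 and were not called, Dhcr7 passing the adjusted p but not the fold. Among the controllers only Insig1, itself an SREBP target, was called, at 48.2 and 21.0 CPM in Idh1-R132H and 23.2 and 51.2 CPM in Idh1-WT (log2 difference 1.60 ± 0.31 SE, adjusted p = 4.72e-06). Elovl6, which lengthens saturated fatty acids, was the one fatty acid enzyme called (log2 difference 1.14 ± 0.42 SE, adjusted p = 0.0381), whereas Acly, which makes cytosolic acetyl-CoA from citrate, had -0.61. The LXR targets pointed the other way, with Mylip at -1.53 and Abca1 at -1.36, neither called. Abcg1 was called lower (log2 difference -1.13 ± 0.44 SE, adjusted p = 0.0499) and lost the call with RLE factors, with library totals and without Idh1-R132H 1, Idh1-R132H 2 or Idh1-WT 1. The 13 higher members kept at least 2-fold in all 3 scalings.

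**Figure D2:**
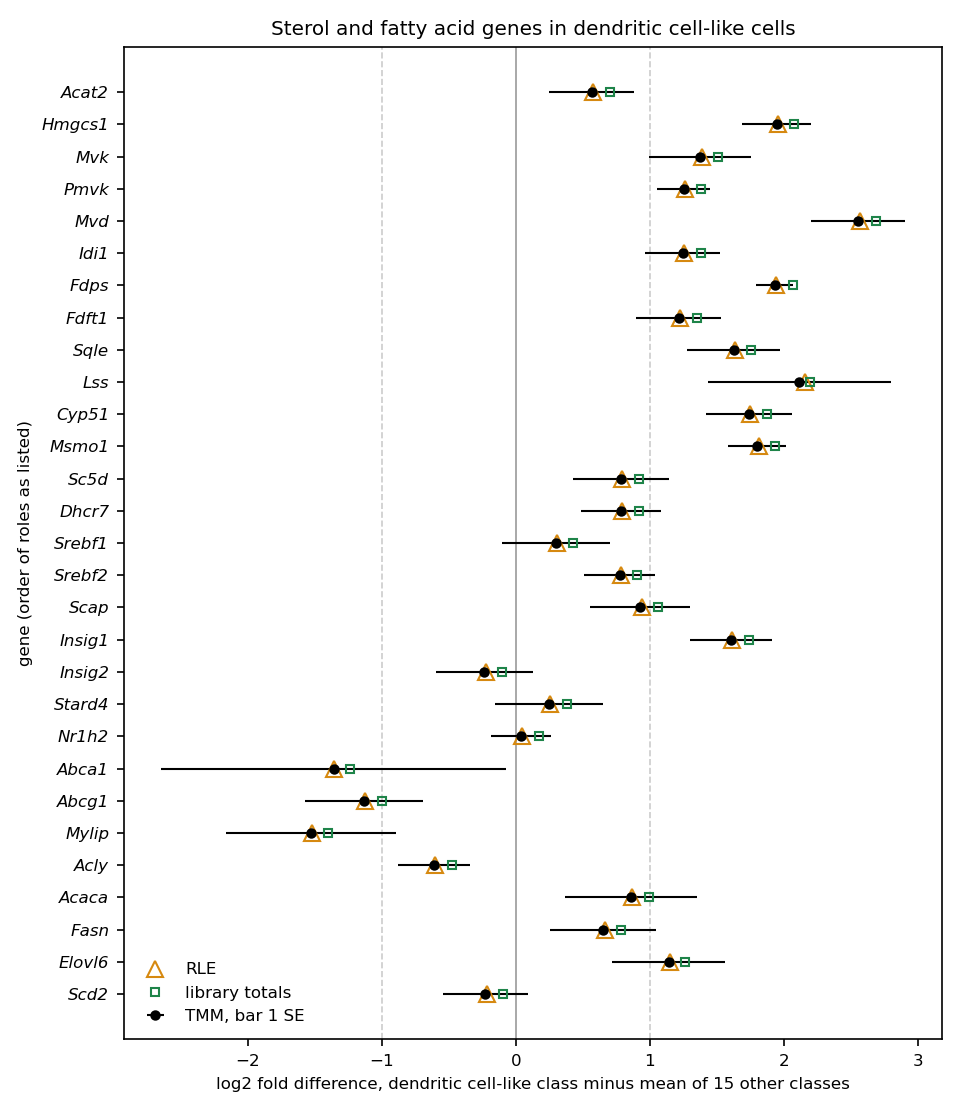
The horizontal axis is the log2 fold difference of each tested gene (rows, by role) in dendritic cell-like cells minus the mean of the 15 other classes, under 3 scalings; bars are 1 SE of the TMM fit and dashed lines mark 2-fold. The 11 called cholesterol enzymes lie right of 1 and the 3 LXR targets left of -1.

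The dendritic cell-like class held 39 and 44 cells in the Idh1-R132H libraries and 41 and 44 cells in the Idh1-WT libraries, so its counts were small: Fdps rested on 42 and 82 UMIs in Idh1-R132H and 57 and 117 UMIs in Idh1-WT, and Mvd on 3 and 8 UMIs in Idh1-R132H and 10 and 15 UMIs in Idh1-WT. It joined a cluster led by H2-Ab1, Cd74 and H2-Aa and a cluster led by Cox6a2, Ly6d and Siglech. Lss lay near the floor in both. It had 9.09 and 5.61 CPM in Idh1-R132H and 0 and 10.8 CPM in Idh1-WT in the first. In the second it had 0 and 0 CPM in Idh1-R132H and 32.2 and 11.4 CPM in Idh1-WT. Summed over the 16 enzymes the first stood at 654 and 522 CPM in the Idh1-R132H libraries and 429.9 and 1154 CPM in the Idh1-WT libraries, and the second at 695 and 720 CPM in the Idh1-R132H libraries and 881 and 818 CPM in the Idh1-WT libraries. The class sum was 675 and 614 CPM in Idh1-R132H and 592 and 1046 CPM in Idh1-WT, and no library of another class exceeded 479 CPM. The count of 13 higher members was 11 to 12 with 1 library left out and 13 with the shared barcodes left out, and it fell to 8 when each cell was classed by its own markers. Summed markers of granulocyte-monocyte progenitors in this class were 8080 CPM in Idh1-R132H 2 and 1627 to 1994 CPM in the other 3 libraries; without Idh1-R132H 2 the count was 12. G2 and M phase genes summed to 2386 and 1630 CPM in the Idh1-R132H libraries and 2242 and 2603 CPM in the Idh1-WT libraries in dendritic cell-like cells; in the Pf4 and Cenpf progenitor cluster, where 1 member was called higher, they reached 5449 to 5922 CPM. Beyond the 32 genes, 2 of 10 tested genes of a further sterol list were called higher in this class, Cyp27a1 (log2 difference 5.49) and Npc2 (log2 difference 1.50), and 0 of 8 tested genes of a further fatty acid list.

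In stem and multipotent progenitor-like cells 4 of 29 members were called higher (12.7% of all genes) and 0 lower (3.61%). Srebf2, the SREBP most tied to cholesterol synthesis, stood at 61.4 and 57.5 CPM in Idh1-R132H and 53.0 and 55.2 CPM in Idh1-WT (log2 difference 1.25 ± 0.07 SE, adjusted p = 1.14e-39), and class means elsewhere were 8.85 to 51.3 CPM. Insig1 had 21.4 and 26.0 CPM in Idh1-R132H and 17.5 and 40.8 CPM in Idh1-WT (log2 difference 1.08 ± 0.11 SE, adjusted p = 7.77e-18), and Idh1-WT 2 was well above the other 3 libraries. Sqle, which oxidises squalene, had 22.7 and 19.7 CPM in Idh1-R132H and 19.2 and 28.6 CPM in Idh1-WT (log2 difference 1.28 ± 0.13 SE, adjusted p = 7.85e-18). Elovl6 had 17.2 and 19.0 CPM in Idh1-R132H and 13.8 and 15.7 CPM in Idh1-WT (log2 difference 1.14 ± 0.14 SE, adjusted p = 2.02e-13). Of the 6 genes of SREBP control all had positive differences, with a median of 0.59 against 0.11 over all genes. With library totals 8 members were called higher, and without Idh1-R132H 1 the count was 7. Lymphoid-primed progenitor-like cells shared the high Srebf2 and Elovl6, which were called there with Abca1 (3 higher, 8.72% of all genes). Srebf2 had 49.7 and 62.1 CPM in Idh1-R132H and 38.5 and 54.8 CPM in Idh1-WT (log2 difference 1.12 ± 0.13 SE, adjusted p = 3.05e-14), and Elovl6 had 14.0 and 17.5 CPM in Idh1-R132H and 17.5 and 19.7 CPM in Idh1-WT (log2 difference 1.22 ± 0.23 SE, adjusted p = 1.59e-06). Abca1, a cholesterol exporter, rested on 2 to 10 UMIs per library (log2 difference 1.09 ± 0.40 SE, adjusted p = 0.022).

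Granulocyte-monocyte progenitor-like cells, which give rise to neutrophils and monocytes, had lower levels of most members than stem and multipotent progenitor-like cells. In that direct contrast 18 of 29 members were lower (38.2% of all genes) and 3 higher (34.9%) at an adjusted p under 0.05, with no limit of fold. The 18 lower members were lower in all 3 scalings, and of the 3 higher only Fdps held in all 3. Fdps had 121 and 113 CPM in Idh1-R132H and 144 and 152 CPM in Idh1-WT in granulocyte-monocyte progenitor-like cells. In stem and multipotent progenitor-like cells it had 67.6 and 62.9 CPM in Idh1-R132H and 62.0 and 77.0 CPM in Idh1-WT (log2 difference 1.20 ± 0.06 SE, adjusted p = 8.13e-27). The libraries of these classes did not overlap. Srebf2 had 13.5 and 10.2 CPM in Idh1-R132H and 12.6 and 11.9 CPM in Idh1-WT in granulocyte-monocyte progenitor-like cells (log2 difference -2.0 ± 0.08 SE, adjusted p = 7.22e-59). Abcg1, which exports cholesterol to lipoproteins, had 6.20 and 9.08 CPM in Idh1-R132H and 5.24 and 6.01 CPM in Idh1-WT there (log2 difference -2.13 ± 0.10 SE, adjusted p = 6.52e-52). In stem and multipotent progenitor-like cells Abcg1 had 38.5 and 35.4 CPM in Idh1-R132H and 29.2 and 35.2 CPM in Idh1-WT. Also lower by at least 2-fold were Abca1 (-2.38), Elovl6 (-1.44), Msmo1 (-1.18), Cyp51 (-1.18), Insig1 (-1.10), Sqle (-1.03) and Stard4 (-1.02), a carrier of sterol between membranes. The direction of Fdps was opposite to that of Sqle, Cyp51 and Msmo1, which act after it in the same pathway. Against the mean of the other classes, only Abca1 (-1.73) and Abcg1 (-1.29) were called (2 lower, 4.51% of all genes; 0 higher, 6.3%).

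In monocyte-committed progenitor-like cells Fdps was the only member called higher (1 of 29, 6.82% of all genes), at 163 and 162 CPM in Idh1-R132H and 193 and 226 CPM in Idh1-WT (log2 difference 1.48 ± 0.05 SE, adjusted p = 1.78e-36). Srebf2, Abcg1 and Abca1 were called lower (3 of 29, 6.12% of all genes). Srebf2 had 8.38 and 7.66 CPM in Idh1-R132H and 9.41 and 9.93 CPM in Idh1-WT (log2 difference -1.38 ± 0.12 SE, adjusted p = 1.01e-23), and Abcg1 had 4.77 and 5.83 CPM in Idh1-R132H and 4.18 and 5.63 CPM in Idh1-WT (log2 difference -1.72 ± 0.13 SE, adjusted p = 4.36e-28). Abca1 lay between 0.296 and 1.27 CPM over the 4 libraries (log2 difference -1.68 ± 0.38 SE, adjusted p = 4.3e-05). All 4 calls held in each of the 3 scalings. In monocyte-like cells against these progenitors 9 of 29 members were higher (29.9% of all genes) and 6 lower (29.8%), in all 3 scalings. Mvd had 34.8 and 32.3 CPM in Idh1-R132H and 30.0 and 33.4 CPM in Idh1-WT in monocyte-like cells (log2 difference 1.82 ± 0.17 SE, adjusted p = 2.5e-19). Also higher were Abcg1 (1.21), Msmo1 (1.11), Fdft1 (1.09) and Srebf2 (0.85). Scd2, a stearoyl-CoA desaturase, was lower, at 7.91 and 8.69 CPM in Idh1-R132H and 6.18 and 12.8 CPM in Idh1-WT in monocyte-like cells (log2 difference -1.61 ± 0.20 SE, adjusted p = 3.08e-13). The other lower members were Fasn, the fatty acid synthase (-1.55), Scap (-1.02), Fdps (-0.89), Dhcr7 (-0.88) and Acat2 (-0.74). Against the mean of all other classes, Mvd was called higher in monocyte-like cells (log2 difference 2.68 ± 0.18 SE, adjusted p = 5.78e-31; 14.1% of all genes). Scd2 was called lower (log2 difference -1.41 ± 0.21 SE, adjusted p = 5.3e-10; 7.26% of all genes).

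In CPM both neutrophil classes had little RNA of fatty acid synthesis. The 5 enzymes summed to 38.7 and 26.5 CPM in Idh1-R132H and 37.4 and 44.4 CPM in Idh1-WT in neutrophil precursor-like cells, against 101 and 90.1 CPM in Idh1-R132H and 85.7 and 97.8 CPM in Idh1-WT in granulocyte-monocyte progenitor-like cells, and no library of one class overlapped those of the other. In neutrophil precursor-like cells 4 members were called lower (14.9% of all genes) and 2 higher (18.3%). The 4 lower members, Elovl6, Fasn, Dhcr7 and Abcg1, were lower in all 3 scalings. Elovl6 had 0 to 2 UMIs per library (log2 difference -3.49 ± 0.55 SE, adjusted p = 7.09e-09). Fasn had 2.50 and 1.15 CPM in Idh1-R132H and 2.10 and 1.62 CPM in Idh1-WT (log2 difference -1.57 ± 0.33 SE, adjusted p = 1.25e-05). Dhcr7, the last enzyme of the pathway, had 1.87 and 2.30 CPM in Idh1-R132H and 2.94 and 1.62 CPM in Idh1-WT (log2 difference -1.91 ± 0.27 SE, adjusted p = 1.56e-10). Abcg1 lay between 2.16 and 6.87 CPM over the 4 libraries (-1.13). The higher ones, Msmo1 (1.33) and Mvd (1.16), were not called with library totals. Scaling mattered here: the median log2 difference of all genes was -0.05 with TMM and -0.99 with library totals, and 9 of 29 members changed sign. Set directly against granulocyte-monocyte progenitor-like cells, 8 members were lower (37% of all genes) and 10 higher (33%), of which all 8 lower ones held in the 3 scalings. Among them were Elovl6 (-2.90), Dhcr7 (-2.20), Fasn (-2.16) and Scd2 (-1.40). Of the higher ones 2 held, Msmo1 at 18.7 and 21.1 CPM in Idh1-R132H and 28.1 and 37.3 CPM in Idh1-WT in the precursors (log2 difference 1.84 ± 0.14 SE, adjusted p = 4.91e-28) and Mylip (1.37).

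Neutrophil-like cells, mature and short-lived, had a median of 1549 UMIs per cell, and free RNA came to 164 to 241 UMIs per mature B-like cell. Members rested on few counts in them. Here 10 members were called lower (27.3% of all genes) and 3 higher (20.4%), and the median of all genes was -0.50 with TMM, -0.08 with RLE factors and -1.28 with library totals. In all 3 scalings 4 were lower, Sqle, Dhcr7, Acat2 and Fdps. Sqle had 1 UMI in Idh1-R132H 1 and 0 in the other 3 libraries (log2 difference -3.40 ± 0.92 SE, adjusted p = 0.000706). Dhcr7 had 0 to 2 UMIs per library (-1.84) and Acat2 0 to 3 UMIs (-1.83). Fdps had 24.0 and 16.7 CPM in Idh1-R132H and 17.0 and 6.90 CPM in Idh1-WT (log2 difference -1.47 ± 0.28 SE, adjusted p = 8.93e-06). Fdft1, Scap, Insig1, Stard4, Elovl6 and Scd2 were called lower with TMM, and RLE factors left 4 lower members in all. Msmo1 (1.34), Sc5d (1.41) and Mylip (1.59) were called higher with TMM and not with library totals. Against their precursors 5 members were lower (22.6% of all genes) and 1 higher (14.7%) in neutrophil-like cells. The lower count was 1 to 4 with 1 library left out, 3 with the shared barcodes left out, 1 with RLE factors or per-cell classes and 8 with free RNA subtracted. In all 3 scalings Fdps was lower (log2 difference -1.83 ± 0.29 SE, adjusted p = 2.38e-07) and Abcg1 higher, at 16.8 and 14.6 CPM in Idh1-R132H and 11.9 and 20.7 CPM in Idh1-WT in neutrophil-like cells (log2 difference 1.82 ± 0.39 SE, adjusted p = 4.02e-05). The pathway sum of the 16 enzymes was 117 and 123 CPM in Idh1-R132H and 72.9 and 108 CPM in Idh1-WT in neutrophil-like cells, against 146 and 143 CPM in Idh1-R132H and 180.5 and 182 CPM in Idh1-WT in their precursors.

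**Figure D3:**
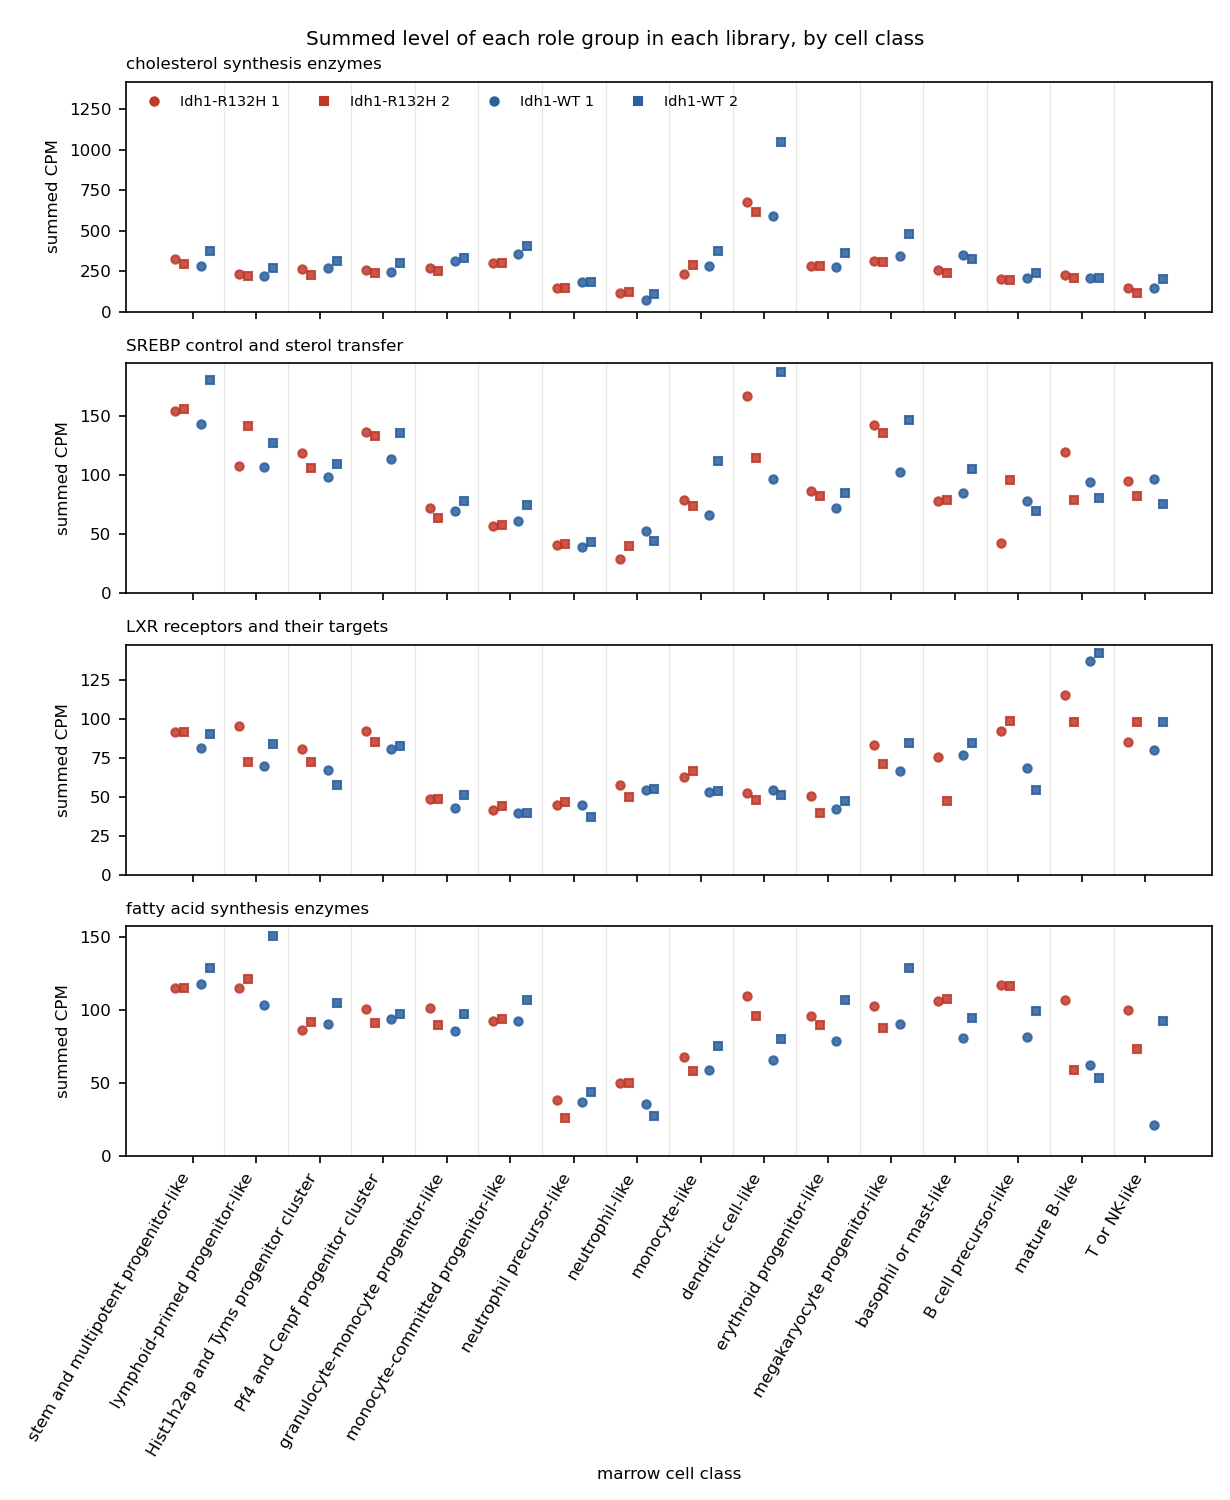
Each point is the summed CPM of 1 role group in 1 library (red, Idh1-R132H; blue, Idh1-WT; circles, replicate 1; squares, replicate 2) for each class along the horizontal axis. The dendritic cell-like libraries lie between 592 and 1046 CPM for the cholesterol enzymes, above every other class, and both neutrophil classes lie below 51 CPM for the fatty acid enzymes.

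Megakaryocyte progenitor-like cells had 5 members called higher (10.2% of all genes) and 0 lower (4.99%). Stard4 had 37.8 and 40.1 CPM in Idh1-R132H and 26.4 and 40.1 CPM in Idh1-WT (log2 difference 1.35 ± 0.16 SE, adjusted p = 8.24e-13), and Sqle had 17.8 and 19.3 CPM in Idh1-R132H and 21.2 and 36.4 CPM in Idh1-WT (log2 difference 1.39 ± 0.19 SE, adjusted p = 1.07e-10). Idi1, the isomerase ahead of Fdps, had 32.5 and 26.2 CPM in Idh1-R132H and 30.2 and 46.8 CPM in Idh1-WT (log2 difference 1.05 ± 0.15 SE, adjusted p = 1.18e-10), and Idh1-WT 2 was the highest of the 4 libraries for Sqle and Idi1. Lss (1.23) rested on 4 to 8 UMIs per library and Elovl6 had between 13.4 and 18.9 CPM (1.14). With each cell classed by its own markers 1 member was called, and without Idh1-WT 2 the count was 3. In erythroid progenitor-like cells 2 members were called higher (9.57% of all genes) and 2 lower (12.1%). Lss had 3.61 and 4.46 CPM in Idh1-R132H and 6.15 and 7.86 CPM in Idh1-WT (log2 difference 1.74 ± 0.33 SE, adjusted p = 1.12e-06), and Sqle had 17.5 and 19.5 CPM in Idh1-R132H and 12.3 and 23.1 CPM in Idh1-WT (log2 difference 1.02 ± 0.18 SE, adjusted p = 1.37e-07). The lower ones were Mylip, between 2.53 and 6.62 CPM over the 4 libraries (-1.56), and Abcg1 (-1.02). With each cell classed by its own markers, no member was called higher in erythroid progenitor-like cells. Lss, lanosterol synthase, was also the 1 member called higher in basophil or mast-like cells (6.69% of all genes; 0 lower, 2.02%), on 3 to 4 UMIs per library (log2 difference 2.13 ± 0.52 SE, adjusted p = 0.000689). In the Hist1h2ap and Tyms progenitor cluster Mvd was the 1 member called, lower (log2 difference -1.95 ± 0.33 SE, adjusted p = 1.29e-07; 4.22% of all genes; 0 members higher, 9.65%). In the Pf4 and Cenpf progenitor cluster Abcg1 was called higher, at 41.1 and 37.9 CPM in Idh1-R132H and 30.9 and 37.2 CPM in Idh1-WT (log2 difference 1.02 ± 0.10 SE, adjusted p = 8.47e-18; 10.5% of all genes). The count was 0 with the shared barcodes left out, and also without Idh1-R132H 2. Mvd was called lower there (log2 difference -1.36 ± 0.30 SE, adjusted p = 3.02e-05; 3.54% of all genes).

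In the B cell precursor-like, mature B-like and T or NK-like classes the members called higher were LXR targets and Insig2. No enzyme of sterol or fatty acid synthesis was called higher in them. In mature B-like cells Abca1 and Mylip were the 2 members called higher (8.5% of all genes; 0 lower, 4.52%). Abca1 had 16.5 and 19.6 CPM in Idh1-R132H and 15.7 and 26.7 CPM in Idh1-WT on 3 to 6 UMIs per library (log2 difference 3.32 ± 0.53 SE, adjusted p = 5.28e-08), and class means elsewhere were 0.462 to 4.69 CPM. Mylip, the ubiquitin ligase that degrades the LDL receptor, had 32.9 and 6.54 CPM in Idh1-R132H and 39.2 and 35.6 CPM in Idh1-WT (log2 difference 1.80 ± 0.36 SE, adjusted p = 1.85e-05), with 1 UMI in Idh1-R132H 2. Against B cell precursor-like cells 3 members were higher in mature B-like cells (9.88% of all genes; 0 lower, 11.8%), of which Abca1 alone held in all 3 scalings (log2 difference 2.21 ± 0.72 SE, adjusted p = 0.014). Without Idh1-R132H 1 or Idh1-WT 2 the count was 0. B cell precursor-like cells had Msmo1 called lower (log2 difference -1.87 ± 0.43 SE, adjusted p = 0.000201; 7.09% of all genes; 0 members higher, 8.12%), on 1 to 4 UMIs per library. T or NK-like cells had 2 members called higher (7.95% of all genes) and 1 lower (4.98%). Abcg1 had 25.0 and 49.0 CPM in Idh1-R132H and 37.4 and 46.2 CPM in Idh1-WT (log2 difference 1.36 ± 0.35 SE, adjusted p = 0.00112). Insig2, which retains Scap, had 40.0 and 40.8 CPM in Idh1-R132H and 26.7 and 34.7 CPM in Idh1-WT (log2 difference 1.24 ± 0.35 SE, adjusted p = 0.00387). Fdps was the lower one, at 25.0 and 24.5 CPM in Idh1-R132H and 42.8 and 40.4 CPM in Idh1-WT (log2 difference -1.16 ± 0.34 SE, adjusted p = 0.00868). Over all genes the T or NK-like class held 200171 and 122405 UMIs in Idh1-R132H and 187105 and 173093 UMIs in Idh1-WT. These CPM therefore rest on few UMIs, and 0 members could be tested between genotypes in this class. With each cell classed by its own markers 0 members were called higher and 0 lower in T or NK-like cells, and without Idh1-R132H 1 the counts were 1 higher and 0 lower.

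The second question was whether Idh1-R132H and Idh1-WT libraries differed in these genes within a class. Fdps fell in 3 classes and Acat2 in 1, and no other member was called in any class at an adjusted p under 0.05. Over all cells Fdps had 102 and 96.1 CPM in Idh1-R132H and 114 and 133 CPM in Idh1-WT (log2 difference -0.32 ± 0.06 SE, adjusted p = 0.0939). Acat2, which makes acetoacetyl-CoA, had 20.8 and 19.2 CPM in Idh1-R132H and 24.1 and 25.0 CPM in Idh1-WT (log2 difference -0.29 ± 0.07 SE, adjusted p = 0.16). Of the 32 members 0 were called, where 0.158% of all 13286 genes were. An unadjusted p under 0.05 was reached by 5 members and by 1037 of all 13286 genes, and DESeq2 called 1 member and 35 of all genes. All 16 cholesterol enzymes had negative differences over all cells, with a median log2 difference of -0.19, against 0.00 over all genes. With 1 library left out, 11 to 16 were negative and the median ranged over -0.30 to -0.10. Both Idh1-R132H libraries lay below both Idh1-WT libraries for 7 of the 16 enzymes and 9 of the 32 members, where 19.3% of all genes did. They lay above for 0 of the 16 enzymes and 3 of the 32 members (19.3% of all genes). Acly had 39.5 and 33.3 CPM in Idh1-R132H and 33.1 and 36.3 CPM in Idh1-WT, Nr1h2 had 35.0 and 32.7 CPM in Idh1-R132H and 33.3 and 32.9 CPM in Idh1-WT and Srebf2 had 24.9 and 22.9 CPM in Idh1-R132H and 22.1 and 24.1 CPM in Idh1-WT over all cells, and for each of these 3 genes the libraries of the 2 groups overlapped. The genes were proposed with a lower level of cholesterol genes in granulocyte-monocyte progenitors already reported from these libraries, so the direction there is a description and no independent finding. The sums over all cells include those progenitors, so the direction over all cells is no independent finding either. Monocyte-committed progenitor-like cells came from the same libraries and scored close to granulocyte-monocyte progenitors on markers. Their direction is therefore not taken as independent either.

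Fdps (chr3:89093588-89101959, minus strand, GENCODE vM21 on GRCm38) was called lower in granulocyte-monocyte progenitor-like cells at 121 and 113 CPM in Idh1-R132H and 144 and 152 CPM in Idh1-WT (log2 difference -0.32 ± 0.06 SE, adjusted p = 0.0341). It was the 1 member called of 31 tested, where 0.12% of all genes were called. This class joined a cluster led by Elane and a cluster led by Cpa3 and Prg2. In the first Fdps had 139 and 128 CPM in Idh1-R132H and 173 and 177 CPM in Idh1-WT. In the second it had 81.6 and 83.8 CPM in Idh1-R132H and 91.2 and 94.3 CPM in Idh1-WT, a smaller gap. In monocyte-committed progenitor-like cells it had 163 and 162 CPM in Idh1-R132H and 193 and 226 CPM in Idh1-WT (log2 difference -0.34 ± 0.06 SE, adjusted p = 0.00586). In the Hist1h2ap and Tyms progenitor cluster it had 57.5 and 40.5 CPM in Idh1-R132H and 71.3 and 86.4 CPM in Idh1-WT (log2 difference -0.67 ± 0.13 SE, adjusted p = 0.0129; 1 of 26 members tested, 0.127% of all genes). In each of these 3 classes both Idh1-R132H libraries lay below both Idh1-WT libraries. Acat2 (chr17:12942890-12960747, minus strand) was called lower in monocyte-committed progenitor-like cells, at 18.4 and 17.3 CPM in Idh1-R132H and 26.6 and 27.3 CPM in Idh1-WT (log2 difference -0.57 ± 0.12 SE, adjusted p = 0.0166). With Fdps this made 2 of 30 members there, where 0.374% of all genes were called. A same-strand gene that overlaps Fdps, Gm43738, had 1 and 2 UMIs in all cells of the Idh1-R132H libraries and 6 and 0 in the Idh1-WT libraries. Acat3, a near copy of Acat2, had 4 and 2 UMIs in the Idh1-R132H libraries and 5 and 5 in the Idh1-WT libraries. Across the classes where it was tested, Fdps had a negative difference in 13 of 14, Msmo1 in 12 of 13 and Idi1 in 11 of 12. These were the most one-sided enzymes: Pmvk was negative in 8 of 12, Dhcr7 in 7 of 10 and Hsd17b7 in 0 of 3. All classes come from the same 4 libraries, so a count over classes is not a count of independent repeats.

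**Figure D4:**
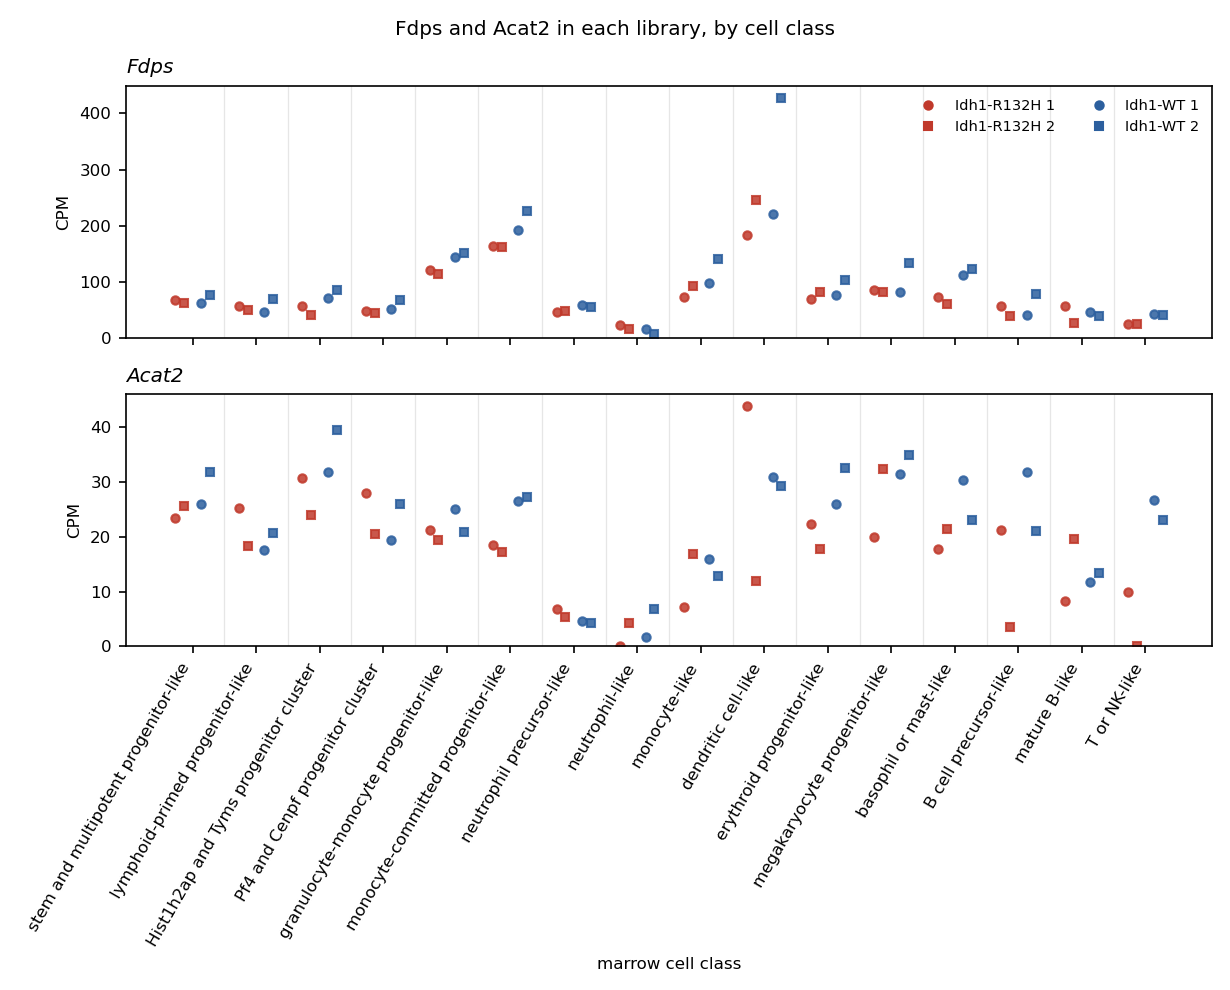
Points give the CPM of Fdps (top) and Acat2 (bottom) in each library (red, Idh1-R132H; blue, Idh1-WT; circles, replicate 1; squares, replicate 2) for each class along the horizontal axis. In monocyte-committed progenitor-like cells Fdps lies at 163 and 162 CPM in Idh1-R132H against 193 and 226 CPM in Idh1-WT, and Acat2 at 18.4 and 17.3 CPM against 26.6 and 27.3 CPM.

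By role, the enzymes of cholesterol synthesis in granulocyte-monocyte progenitor-like cells had negative differences for 15 of 16, with 1 called and a median log2 difference of -0.22, against 0.01 over all genes, of which 48.0% were negative. For 9 of the 16 both Idh1-R132H libraries lay below both Idh1-WT libraries (12 of 31 members, where 21.8% of all genes did). Msmo1 had 10.9 and 10.5 CPM in Idh1-R132H and 13.1 and 19.96 CPM in Idh1-WT (log2 difference -0.59 ± 0.17 SE, adjusted p = 0.372). Mvd had 5.39 and 4.34 CPM in Idh1-R132H and 7.89 and 6.65 CPM in Idh1-WT (log2 difference -0.58 ± 0.19 SE, adjusted p = 0.383), and both genes had groups that did not overlap. Idi1, Pmvk and Fdft1 had log2 differences of -0.33, -0.28 and -0.39 with unadjusted p under 0.05 and adjusted p between 0.422 and 0.561. The 6 genes of SREBP control all had negative differences with a median of -0.09 and none with an unadjusted p under 0.05. Srebf2 itself had 13.5 and 10.2 CPM in Idh1-R132H and 12.6 and 11.9 CPM in Idh1-WT. The 5 fatty acid enzymes had positive differences with a median of 0.04. Abcg1 had 6.20 and 9.08 CPM in Idh1-R132H and 5.24 and 6.01 CPM in Idh1-WT (log2 difference 0.48 ± 0.20 SE, adjusted p = 0.505). Abcg1 was the 1 member of 31 for which both Idh1-R132H libraries lay above both Idh1-WT libraries (18.6% of all genes).

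In monocyte-committed progenitor-like cells 12 of 15 cholesterol enzymes had negative differences, 2 were called, and the median was -0.25, against 0.01 over all genes. Both Idh1-R132H libraries lay below both Idh1-WT libraries for 9 of the 15 enzymes and 14 of 30 members, where 22.8% of all genes did. They lay above for 2 of the 15 enzymes and 3 of the 30 members (18% of all genes). Beyond Fdps and Acat2, Msmo1 had 11.6 and 9.71 CPM in Idh1-R132H and 14.0 and 16.8 CPM in Idh1-WT (log2 difference -0.49 ± 0.15 SE, adjusted p = 0.233). Pmvk, Mvd and Sqle had log2 differences of -0.35, -0.41 and -0.43, none called. Insig1 had 9.44 and 7.44 CPM in Idh1-R132H and 10.8 and 13.6 CPM in Idh1-WT (log2 difference -0.49 ± 0.17 SE, adjusted p = 0.31), and Stard4 had 8.16 and 7.98 CPM in Idh1-R132H and 10.1 and 12.3 CPM in Idh1-WT (log2 difference -0.43 ± 0.17 SE, adjusted p = 0.383). For both genes the groups did not overlap. Scd2 had 22.8 and 25.8 CPM in Idh1-R132H and 27.3 and 32.2 CPM in Idh1-WT (log2 difference -0.26 ± 0.11 SE, adjusted p = 0.438). The 4 LXR genes tested had positive differences with a median of 0.33 and none with an unadjusted p under 0.05.

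**Figure D5:**
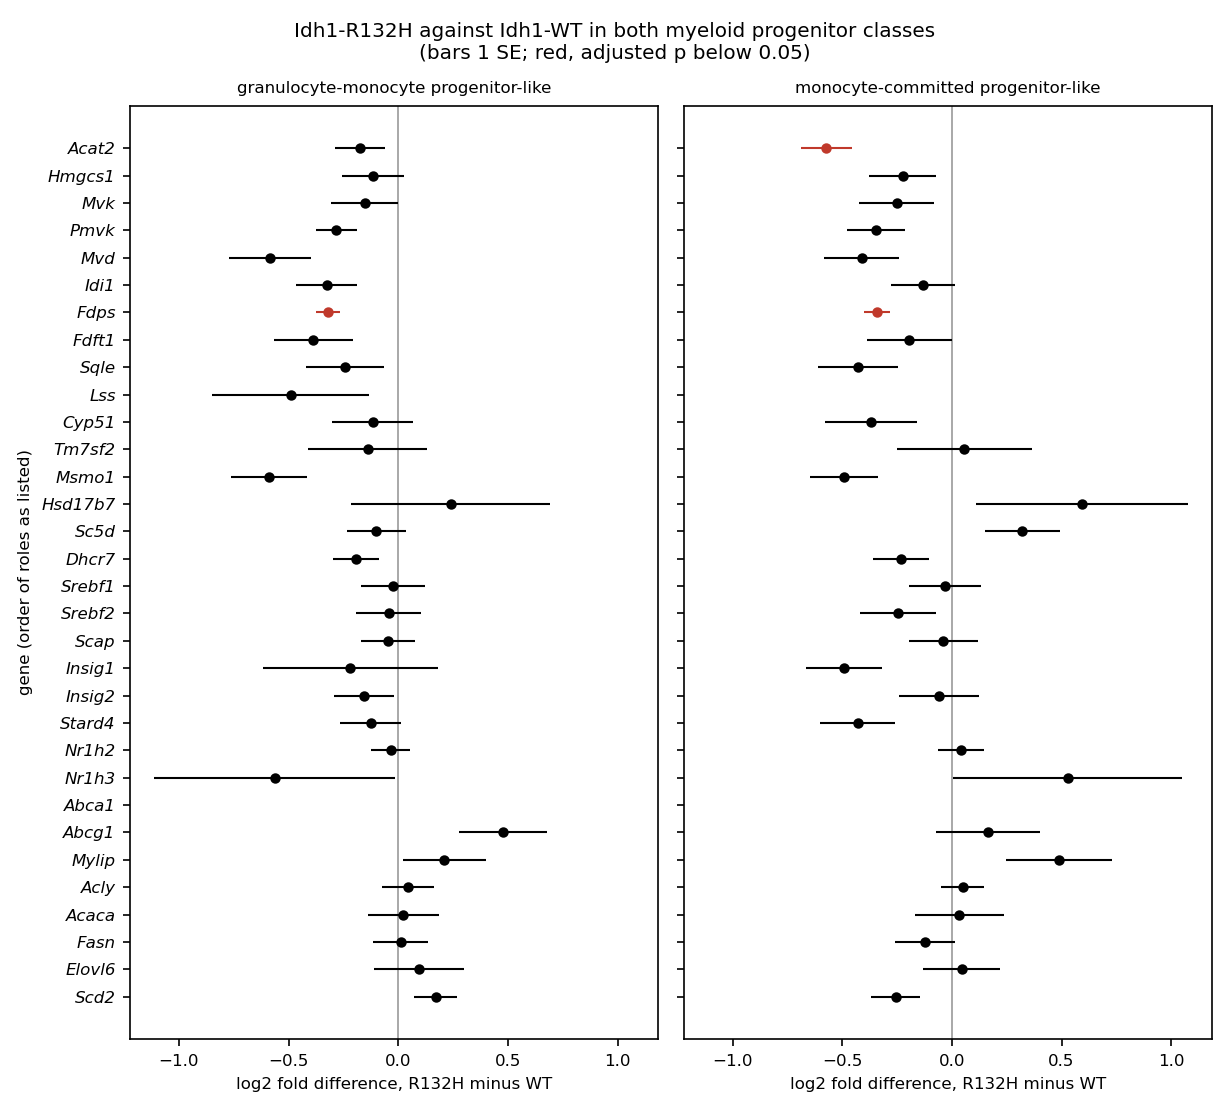
The horizontal axis is the log2 difference of each gene (rows, by role) in Idh1-R132H minus Idh1-WT libraries, in granulocyte-monocyte progenitor-like and monocyte-committed progenitor-like cells; bars are 1 SE and red marks an adjusted p under 0.05. Fdps lies at -0.32 and -0.34 and Acat2 at -0.57 in the second class, and most cholesterol enzymes lie left of 0 without a call.

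Elsewhere no member was called. The share of all genes called was 0.12% in lymphoid-primed progenitor-like cells (0 of 25 members), 0.197% in monocyte-like cells (0 of 22) and 0.0726% in erythroid progenitor-like cells (0 of 27). It was 0.388% in neutrophil-like cells (0 of 2), 0.188% in the Pf4 and Cenpf progenitor cluster (0 of 27), 0.058% in B cell precursor-like cells (0 of 3), and 0% in basophil or mast-like (0 of 11) and mature B-like cells (0 of 3). Unadjusted p were under 0.05 for 1 member in lymphoid-primed progenitor-like cells (484 of 7522 genes) and for 2 each in monocyte-like (450 of 7123), erythroid progenitor-like (432 of 8259) and basophil or mast-like cells (230 of 5134). They were under 0.05 for 0 members in neutrophil-like (216 of 3094 genes), B cell precursor-like (287 of 3451) and mature B-like cells (99 of 2865) and in the Pf4 and Cenpf progenitor cluster (748 of 9588). In T or NK-like cells no member passed the filter. In stem and multipotent progenitor-like cells 0 of 31 members were called (0.0989% of all genes) and 2 had an unadjusted p under 0.05 (544 of 11125 genes), Scd2 with 35.8 and 40.8 CPM in Idh1-R132H and 44.7 and 53.3 CPM in Idh1-WT (log2 difference -0.37 ± 0.12 SE, adjusted p = 0.69) and Stard4 (-0.43). There 11 of 16 cholesterol enzymes had negative differences with a median of -0.09. Both Idh1-R132H libraries lay below both Idh1-WT libraries for 2 of the 16 enzymes and 8 of 31 members (14.6% of all genes). They lay above for 4 of the 31 members (18.9%). In neutrophil precursor-like cells 0 of 18 were called (0.275% of all genes) and 4 had an unadjusted p under 0.05 (404 of 6921 genes). Msmo1 there had 18.7 and 21.1 CPM in Idh1-R132H and 28.1 and 37.3 CPM in Idh1-WT (log2 difference -0.70 ± 0.22 SE, adjusted p = 0.324), and for 7 of 9 cholesterol enzymes, and 10 of 18 members, both Idh1-R132H libraries lay below both Idh1-WT libraries, where 15% of all genes did. They lay above for 1 of the 9 enzymes and 3 of the 18 members (18.5% of all genes). In megakaryocyte progenitor-like cells all 11 enzymes tested had negative differences with a median of -0.39, and 0 of 25 members were called (0.202% of all genes; 3 with an unadjusted p under 0.05, and 633 of 7909 genes). The 16 enzymes summed to 314 and 306 CPM in Idh1-R132H and 342 and 479 CPM in Idh1-WT there. With 1 library left out the median ranged over -0.69 to -0.13. For 5 of the 11 enzymes both Idh1-R132H libraries lay below both Idh1-WT libraries, where 18.6% of all genes did. In dendritic cell-like cells only 8 members could be tested and 0 were called (0.367% of all genes; 1 with an unadjusted p under 0.05, and 297 of 3267 genes), and Mvd had 13.2 and 24.0 CPM in Idh1-R132H and 38.7 and 54.8 CPM in Idh1-WT (log2 difference -1.23 ± 0.55 SE, adjusted p = 0.522). In the Hist1h2ap and Tyms progenitor cluster 7 of 12 enzymes had negative differences, and for 7 of 26 members both Idh1-R132H libraries lay below both Idh1-WT libraries, where 17.4% of all genes did. They lay above for 4 of the 26 (18.1%). Members below and above were 4 and 0 of 25 in lymphoid-primed progenitor-like cells (19.6% and 16.3% of all genes). Monocyte-like cells had 6 and 2 of 22 (18.6% and 16.3%), erythroid progenitor-like cells 7 and 3 of 27 (15.3% and 17.9%). Megakaryocyte progenitor-like cells had 6 and 3 of 25 (18.6% and 18.4%). The Pf4 and Cenpf progenitor cluster had 4 below and 5 above of 27 (19.4% and 18.3% of all genes). Basophil or mast-like cells had 5 and 1 of 11 (16.5% and 17.8%), dendritic cell-like cells 1 and 0 of 8 (19.3% and 18.5%). Neutrophil-like cells had 0 and 2 of 2 (16.7% and 17.7%), B cell precursor-like cells 0 and 2 of 3 (21.9% and 15.8%), mature B-like cells 1 and 1 of 3 (15.8% and 16.2%). Whether the genotype difference itself differed between classes was tested with an interaction term. It called 0 members for granulocyte-monocyte progenitor-like minus stem and multipotent progenitor-like cells (0.0171% of all genes; 6 members with an unadjusted p under 0.05, and 705 of 11709 genes). Fdps had a value of -0.22 ± 0.10 SE, adjusted p = 0.77 in that term. It called 0 for neutrophil precursor-like minus granulocyte-monocyte progenitor-like cells (0.134%; 4 members and 589 of 10425 genes under 0.05 unadjusted) and 0 for monocyte-committed progenitor-like minus granulocyte-monocyte progenitor-like cells (0.0274%; 3 members and 543 of 10933 genes). The fall of Fdps was not shown to differ between these classes.

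Fdps in monocyte-committed progenitor-like cells kept its call under every alternative that could be fitted there, each library left out included, with adjusted p between 4.91e-07 and 0.0422, and with the shared barcodes left out the log2 difference was -0.40. Cells with at most 1 G2 and M phase UMI were too few to be fitted in that class. In granulocyte-monocyte progenitor-like cells its log2 difference of -0.32 lost the call with DESeq2 (-0.33, adjusted p = 0.0983), with the replicate block (-0.32, adjusted p = 0.106), without Idh1-R132H 2 (-0.28, adjusted p = 0.0912) and in cells with at most 1 G2 and M phase UMI (-0.43, adjusted p = 0.936), of which each library held 22 to 39. In the Hist1h2ap and Tyms progenitor cluster the log2 difference of -0.67 lost the call with DESeq2 (-0.68, adjusted p = 1.00), without Idh1-R132H 2 (-0.44, adjusted p = 0.366) and without Idh1-WT 2 (-0.57, adjusted p = 0.0686). Acat2, at -0.57 in monocyte-committed progenitor-like cells, lost its call with DESeq2 (-0.58, adjusted p = 0.640), with each cell classed by its own markers (-0.54, adjusted p = 0.107) and in Xist-carrying cells (-0.65, adjusted p = 0.0961). Other summed levels did not overlap between the genotypes in granulocyte-monocyte progenitor-like cells. G2 and M phase genes summed to 1459.7 and 1472 CPM in Idh1-R132H and 1579 and 1696 CPM in Idh1-WT. Immediate early genes summed to 565 and 536 CPM in Idh1-R132H and 649.9 and 714 CPM in Idh1-WT, and ribosomal protein genes to 346444 and 350905 CPM in Idh1-R132H and 336701 and 331319 CPM in Idh1-WT. All 6 eosinophil markers were detected there, at 286 and 30.3 CPM in Idh1-R132H and 31.2 and 66.2 CPM in Idh1-WT, so Idh1-R132H 1 stood apart. In monocyte-committed progenitor-like cells the immediate early genes summed to 582 and 525 CPM in Idh1-R132H and 631 and 649 CPM in Idh1-WT and ribosomal protein genes to 342359 and 345020.0 CPM in Idh1-R132H and 332031 and 325046 CPM in Idh1-WT. Xist-carrying cells with no Y-linked UMI made up 51.9% and 38.4% of the granulocyte-monocyte progenitor-like class in Idh1-R132H and 76.8% and 60.5% in Idh1-WT. In the monocyte-committed progenitor-like class their share was 53.5% and 35.5% in Idh1-R132H and 80.0% and 55.9% in Idh1-WT. The part of these measures in the lower Fdps and Acat2 was not tested.

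No gene of the further lists of the 2 pathways was called with genotype in the progenitor classes. Of 11 further sterol genes 9 passed the filter in granulocyte-monocyte progenitor-like cells, 6 with negative differences, and 10 in monocyte-committed progenitor-like cells, 5 with negative differences, and 0 were called in either class (1 and 3 with an unadjusted p under 0.05, where 960 of 10874 and 1023 of 10422 genes were). Of 12 further fatty acid genes 8 were tested in each of these classes, 4 and 5 with negative differences, and 0 were called (0 with an unadjusted p under 0.05). Of 18 G2 and M phase genes 16 had negative differences in granulocyte-monocyte progenitor-like cells, with a median of -0.14, and 0 were called (8 with an unadjusted p under 0.05).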

How the data were processed

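The authors' deposited files are raw gene by barcode UMI counts, 1 matrix per library and recipient mouse, from 10x 3′ chemistry version 2 per the labels' protocols. The submitters' processing notes name Cell Ranger 4.0.0, Seurat and the build GRCm38/mm10. Barcodes entered with 500 UMIs and 200 genes or more and up to 10% of UMIs from mitochondrial genes (16280), and 111 called doublets were removed (0.682%). Cells were clustered with scanpy 1.11.5 (2000 variable genes, 30 components, Leiden resolution 1, random seed 1) without the 32 genes, the further pathway lists, Xist and Y-linked genes. Of 24 clusters 19 were named from marker lists and 3 stayed unnamed; the limits used for naming were set after the clusters had been seen. Pseudobulk sums of raw counts for each library in each class were tested with edgeR 4.0.16 (TMM, quasi-likelihood, filterByExpr, R 4.3.3), with Benjamini-Hochberg adjustment over all genes and an adjusted p threshold of 0.05. Contrasts between classes had the library as a block. The replicates are the 2 recipient mice per group, with the number of donors not given in the sources used here. The alternatives were DESeq2 1.42.0, other scalings and filters, each library left out, per-cell classes, subtraction of free RNA, Xist-carrying cells, cells low in G2 and M phase UMIs and, chosen after seeing the data, library totals and the removal of shared barcodes. The method was tested on simulated data with a dispersion of 0.01. The genotype fits called 3.28% to 25.8% of genes changed by a log2 difference of 0.5 and 36.5% to 87.9% of those changed by 1. A class with 0 members called is therefore not shown to be without change. Positions are from GENCODE vM21, which matched 27645 of 27998 features (98.7%); reads of overlapping genes on the same strand cannot be told apart. The 32 genes, the lists and the tests were chosen with earlier results of these data known. The genes described are all 32 by role, with values for those called.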

Additional observations from a re-analysis of the deposited data

How the results depend on the processing

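Of 405 counts over 62 results recomputed without leaving out a library, 341 stayed within 1.5 times; the cause of the changes was not tested. These counts have no direction. The median log2 difference of the cholesterol enzymes between Idh1-R132H and Idh1-WT changed sign in Xist-carrying cells for stem and multipotent progenitor-like cells (0.003 in place of -0.09) and the Pf4 and Cenpf progenitor cluster (0.06 in place of -0.03), and in cells with at most 1 G2 and M phase UMI for dendritic cell-like cells (0.44 in place of -0.35). In mature B-like cells, at 0.06, it was -0.02 with DESeq2, -0.01 without a filter and -0.17 with the shared barcodes left out. Between Idh1-R132H and Idh1-WT the members called were 1 in granulocyte-monocyte progenitor-like cells, 2 in monocyte-committed progenitor-like cells, 1 in the Hist1h2ap and Tyms progenitor cluster and 0 over all cells. DESeq2 gave 0, 1, 0 and 1. Without a filter on low counts the first was 2 and the all-cell count 3. The replicate block gave 0 in granulocyte-monocyte progenitor-like cells and 1 in monocyte-like cells (0 without it); same-numbered libraries did not deviate together, with correlations between -0.09 and 0.04 in 15 classes and 0.28 in mature B-like cells, so the numbers were not taken as pairs. Cells with at most 1 G2 and M phase UMI gave 0 in granulocyte-monocyte progenitor-like cells, Xist-carrying cells gave 1 in monocyte-committed progenitor-like cells, and per-cell classes gave 3 and 1 in these classes.

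For members at least 2-fold higher in a class, RLE factors gave 5 in neutrophil-like cells in place of 3, and 1 in erythroid progenitor-like cells in place of 2; for those lower they gave 4 in neutrophil-like cells in place of 10, and 0 in dendritic cell-like cells in place of 1. They left 1 member higher in granulocyte-monocyte progenitor-like than in stem and multipotent progenitor-like cells in place of 3, and 4 higher and 1 lower in neutrophil-like than in neutrophil precursor-like cells in place of 1 and 5. Per-cell classes gave, for members higher, 1 in lymphoid-primed progenitor-like (3 in the clusters), 1 in granulocyte-monocyte progenitor-like (0), 1 in neutrophil precursor-like (2), 8 in dendritic cell-like (13), 0 in erythroid progenitor-like (2), 1 in megakaryocyte progenitor-like (5), 0 in basophil or mast-like (1) and 0 in T or NK-like cells (2). For members lower they gave 1 in lymphoid-primed progenitor-like (0), 6 in neutrophil-like (10), 0 in dendritic cell-like (1), 1 in erythroid progenitor-like (2), 2 in mature B-like (0) and 0 in T or NK-like cells (1). Between neighbouring classes they gave 7 higher in granulocyte-monocyte progenitor-like cells (3), 3 higher and 1 lower in neutrophil-like cells (1 and 5) and 1 lower in mature B-like cells (0). Subtracting free RNA gave 1 higher in granulocyte-monocyte progenitor-like and 2 in basophil or mast-like cells, and 18 lower in neutrophil-like, 0 in dendritic cell-like and 1 in erythroid progenitor-like cells, with 8 lower in neutrophil-like cells than in their precursors.

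Library totals gave 8 higher in stem and multipotent progenitor-like, 0 in neutrophil precursor-like, 0 in neutrophil-like, 2 in basophil or mast-like cells and 2 in the Pf4 and Cenpf progenitor cluster, and 15 lower in neutrophil precursor-like, 19 in neutrophil-like, 0 in dendritic cell-like and 1 in erythroid progenitor-like cells. They gave 1 higher for granulocyte-monocyte progenitor-like minus stem and multipotent progenitor-like cells, 2 higher and 20 lower for neutrophil precursor-like minus granulocyte-monocyte progenitor-like cells, 2 higher and 3 lower for neutrophil-like minus neutrophil precursor-like cells and 1 higher for mature B-like minus B cell precursor-like cells. Leaving out shared barcodes gave 6 lower in neutrophil-like, 1 lower in erythroid progenitor-like and 2 lower in T or NK-like cells, 0 higher in the Pf4 and Cenpf progenitor cluster, and 2 higher and 3 lower in neutrophil-like cells against their precursors.

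With each library left out in turn, members called by genotype ranged over 0 to 2 in stem and multipotent progenitor-like, 0 to 3 in granulocyte-monocyte progenitor-like and 0 to 1 in monocyte-like cells, 0 to 1 in the Hist1h2ap and Tyms progenitor cluster and 0 to 7 over all cells; the upper ends of the first 3 and of all cells came without Idh1-WT 1. Of all genes tested, 9 to 67 were called in stem and multipotent progenitor-like cells, 30 to 131 in granulocyte-monocyte progenitor-like cells and 28 to 306 over all cells, each highest without Idh1-WT 1, against 11, 13 and 21 with all libraries. The enzyme median then changed sign without Idh1-WT 2 in stem and multipotent progenitor-like, lymphoid-primed progenitor-like, dendritic cell-like, erythroid progenitor-like, B cell precursor-like and mature B-like cells, and without 1 of the Idh1-R132H libraries in dendritic cell-like, B cell precursor-like and mature B-like cells. Members higher ranged over 4 to 7 in stem and multipotent progenitor-like, 0 to 1 in granulocyte-monocyte progenitor-like, 1 to 3 in neutrophil precursor-like, 1 to 2 in erythroid progenitor-like, 3 to 5 in megakaryocyte progenitor-like, 1 to 2 in basophil or mast-like and 1 to 2 in T or NK-like cells and 0 to 1 in the Pf4 and Cenpf progenitor cluster. Members lower ranged over 1 to 2 in granulocyte-monocyte progenitor-like, 6 to 9 in neutrophil-like (6 without Idh1-WT 2), 1 to 2 in monocyte-like, 0 to 1 in dendritic cell-like, 1 to 3 in erythroid progenitor-like, 1 to 2 in B cell precursor-like, 0 to 1 in mature B-like and 0 to 2 in T or NK-like cells. Between neighbouring classes the ranges were 1 to 3 higher for granulocyte-monocyte progenitor-like cells, 1 to 2 higher and 1 to 4 lower for neutrophil-like cells, and 0 to 3 higher and 0 to 1 lower for mature B-like cells. A fit without 1 library leaves a genotype with 1 library, and its spread is then taken from the other genotype. Depth limited the small classes, where many members had under 10 UMIs per library.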
